A study of Homo sapiens with 15 samples.

Results

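The subject is the knockdown of TP63 in HCC95 cells, set against the knockdowns of SOX2 and GRHL2 in the same cells. Of the 15 RNA-seq libraries of the series, 9 entered the comparison. They were the 3 libraries of siTP63b, the 3 of siSOX2b and the 3 of siGRHL2a, and they were chosen because their columns in the deposited count table share one prefix. The value of siTP63b was compared with the equally weighted mean of the other 2 knockdowns. A gene was then called lower or higher than in each group only if it also differed in the same direction from siSOX2b and from siGRHL2a taken alone.

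HCC95 is a human lung squamous cell carcinoma (LUSC) line, long kept in culture. All cells of this report were transfected with a small interfering RNA (siRNA), a short RNA duplex through which cells cleave mRNA of the same sequence. siTP63b, siSOX2b and siGRHL2a each stand for 1 siRNA against 1 gene, and siNC1 is the negative control siRNA. The labels give neither a dose nor a time after transfection, and they do not say that the replicates were separate cultures, so the p-values measure the spread between these libraries. With 1 siRNA per gene, the loss of TP63 and any other action of the siRNA cannot be told apart.

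TP63 encodes p63, a transcription factor of the p53 family and a lineage factor of stratified epithelia. In the basal layer of skin and airway, p63 is known to maintain basal keratins, integrins and the proteins that anchor cells to the basement membrane, and TP63 lies in a chromosomal segment often amplified in squamous carcinomas. SOX2 and GRHL2 are transcription factors of the same epithelia, SOX2 being amplified together with TP63 and GRHL2 controlling genes of epithelial junctions.

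The 9 libraries held between 22255856 and 34229063 deposited counts each. The even counts among genes with 20 to 500 counts made up 66.1% to 69.0% in these 9 libraries and 49.7% to 50.7% in siNC1 and siKLF5b, whose 6 columns lack the prefix. Levels in siNC1 are therefore given only as a description, because the library set and the siRNA cannot be told apart there. The first principal component of the 9 libraries, with 28.3% of the variance, placed siTP63b at 40.1 to 47.1 and the other libraries between -29.9 and -12.2. The third, with 10.4%, spread the siTP63b libraries themselves, with replicate 3 at -38.9 and replicate 2 at 28.2. As a check of the labelled cell line, the squamous keratin KRT5 stood at 152941 to 310356 counts per library. Of the 11 immune markers, 5 had 0 counts in all 9 libraries, while CD68 reached 1300 counts and CSF1R 1038.

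TP63 itself, on chromosome 3 at 189631389 to 189897276 of hg38 on the plus strand, was measured first because it is the target of the siRNA. Its level was 355, 355 and 394 CPM, the counts scaled to library sizes with TMM factors, in the 3 libraries of siTP63b. It was 714, 730 and 657 CPM in siSOX2b and 873, 818 and 835 CPM in siGRHL2a. The siTP63b libraries lay below all the others, and those of siSOX2b below those of siGRHL2a. In a bulk library, fewer cells with a transcript and less of it per cell cannot be told apart. Against the mean of both, TP63 was lower by a log2 fold change (log2FC) of -1.06 ± 0.05 (SE, n = 3 against 6), with an adjusted p of 1.21e-16 from the quasi-likelihood test of edgeR, adjusted by Benjamini-Hochberg. The exact two-sided permutation test over the libraries gave p = 0.0238, the smallest that 3 against 6 allows, and the same test against either group alone cannot go below 0.1.  MIR944, a microRNA gene inside TP63, had under 1.2 CPM in every library, and a poly(A) library does not measure the mature microRNA.

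TP73, which encodes the related factor p73, was not called lower than in each group. It was at 9.92, 9.53 and 9.66 CPM in siTP63b against 10.4, 11.8 and 12.9 in siSOX2b and 18.7, 19.3 and 19.4 in siGRHL2a. The difference was -0.98 from siGRHL2a, while that of -0.26 from siSOX2b had an adjusted p of 0.066 by edgeR. WRAP73, which overlaps TP73, had 124% as many counts.

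The targets of the other 2 siRNAs have to be read with the comparison in mind. SOX2 was at 30.3, 31.9 and 27.5 CPM in siTP63b, 9.87, 7.2 and 10.2 in siSOX2b and 18.6, 21.2 and 21.4 in siGRHL2a. It was called higher (log2FC 1.14 ± 0.09), but 1 of the comparators targets it, and its level in siNC1 was 73.3 ± 7.15 CPM (SD, n = 3, scaled over 15 libraries), above all 3 knockdowns. GRHL2 was at 122, 117 and 118 CPM in siTP63b, 107, 101 and 97.5 in siSOX2b and 92.0, 93.2 and 92.3 in siGRHL2a, the group that targets it, and at 135 ± 1.01 CPM (SD, n = 3, scaled over 15 libraries) in siNC1. The siGRHL2a libraries were thus the lowest, but only slightly below those of siSOX2b. Against the mean, siTP63b had a log2FC of 0.29 ± 0.05 that stayed under the threshold of 0.75. KLF5, the fourth factor knocked down in the series, had a log2FC of -0.04 ± 0.05 (adjusted p 0.589 by edgeR). PTPRZ1, a receptor tyrosine phosphatase, was at 69.2 to 76.8 CPM in siTP63b, within the range of siSOX2b (61.7 to 74.7) or just above it, and below the 98.2 to 112 CPM of siGRHL2a. With the limit of the library set, its level in siNC1 was 203 ± 3.94 CPM (SD, n = 3, scaled over 15 libraries), above all 3 knockdowns. MDK, a secreted growth factor that binds this receptor, had a log2FC of -0.20 ± 0.10 (adjusted p 0.134 by edgeR).

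Of 24671 genes tested, 591 (2.4%) were lower and 549 (2.23%) higher in siTP63b than the mean of the other 2 knockdowns, where the adjusted p was under 0.05 and the log2FC past 0.75 in either direction (4.62% together). The requirement of the same direction from each group kept 399 genes lower (1.62%) and 345 higher (1.4%), while 192 and 204 genes met the first criterion alone. Among the 399 genes 244 were protein-coding and 130 were lncRNA genes, and among the 345 genes 245 were protein-coding and 91 lncRNA genes. The median absolute log2FC was 1.04 in the genes lower than in each group and 1.05 in those higher. The 3 libraries of siTP63b lay below the 6 others for 379 of the 399 genes, and above them for 334 of the 345. Over all genes tested 9.4% lay below and 9.98% above.

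**Figure D1:**
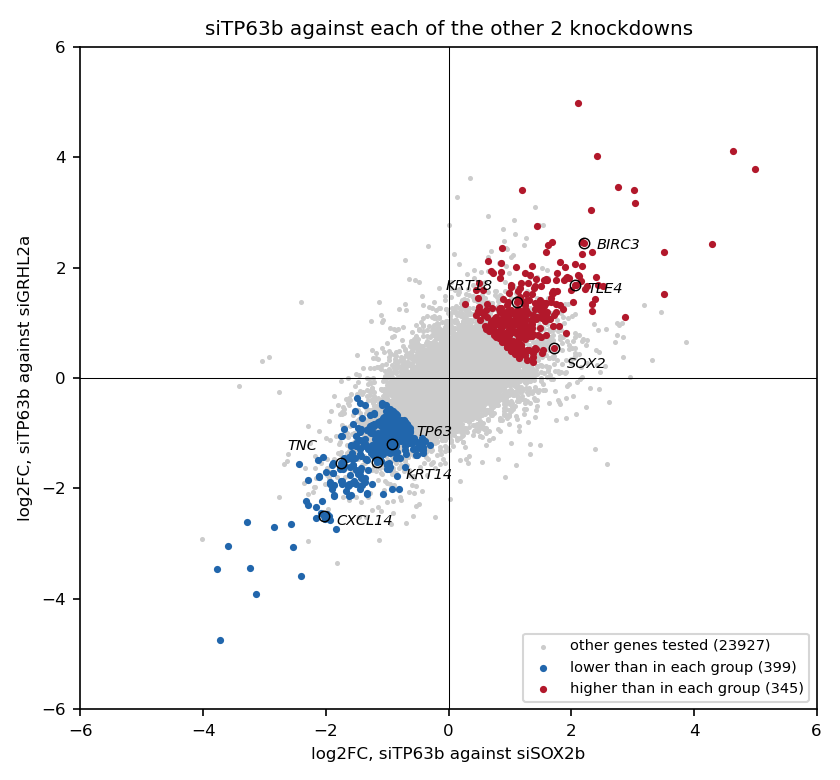
Log2FC of siTP63b against siSOX2b (horizontal axis) and against siGRHL2a (vertical axis), 1 point per gene tested, with the 399 genes lower than in each group in blue and the 345 higher in red. The coloured genes lie along the diagonal because the call asks for the same direction from both groups, TP63 among the blue at -0.93 and -1.19, and the siTP63b values are shared by both axes. Outside the axis limits of 6 lies 1 gene.

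The keratins, the intermediate filament proteins of epithelia, were called in both directions. Of 9 tested keratins of basal and stressed squamous cells, 3 were lower than in each group (33.3%, against 1.62% of all genes), 8 had a log2FC below 0, and the median was -1.27, beside -0.01 over all genes. In a list of 10 tested keratins of simple and mucosal epithelia, 4 were higher than in each group (40%, against 1.4% of all genes), 3 had a log2FC below 0, and the median was 0.44. The 4 are 2 pairs with shared reads, KRT8 with KRT18 and the hair keratins KRT81 and KRT86, so that KRT8 and KRT18 alone of those called are keratins of simple epithelia. These calls are by edgeR, and DESeq2 called 3 of this list higher than in each group.

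KRT14, the partner of KRT5 in the basal layer, was at 64.3, 55.9 and 74.9 CPM in siTP63b. The libraries of siSOX2b had 147, 123 and 169 CPM and those of siGRHL2a 184, 202 and 177, so that the groups did not overlap. The log2FC was -1.35 ± 0.08, with an adjusted p of 3.93e-14 by edgeR. KRT17, a keratin of injured and neoplastic squamous cells, was at 503, 416 and 570 CPM in siTP63b, 1111, 1003 and 1237 in siSOX2b and 1232, 1367 and 1266 in siGRHL2a (log2FC -1.27 ± 0.07). Again every siTP63b library was lower than the other 6. KRT75 was the third keratin lower than in each group, from a low level of at most 0.562 CPM in siTP63b.

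KRT5, KRT6A and KRT16 were lower too, but by less than the threshold. KRT5 was at 6095, 5264 and 6103 CPM in siTP63b, 7967, 7110 and 7689 in siSOX2b and 9118, 9360 and 9463 in siGRHL2a, a log2FC of -0.53 ± 0.05 (adjusted p 1.19e-10 by edgeR). KRT6A, a keratin of wound edges, had a log2FC of -0.52 ± 0.07 and KRT16, its partner, -0.63 ± 0.11. KRT6B and KRT6C were called against the mean, but their differences from siSOX2b had adjusted p of 0.37 and 0.26 by edgeR, and KRT6C rested on siGRHL2a replicate 2 at 52.9 CPM beside 13.5 and 12.1 in its other libraries. KRT15 varied within groups, from 46.8 to 173 CPM in siTP63b, and was not called (adjusted p 0.383 by edgeR). KRT6A, KRT6B and KRT6C are near-identical, and reads may be split among them.

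KRT8 and KRT18, the keratin pair of simple epithelia, went the other way. KRT18 was at 417, 387 and 436 CPM in siTP63b, 200, 184 and 189 in siSOX2b and 159, 170 and 150 in siGRHL2a. KRT8 was at 773, 737 and 803 CPM, against 390, 358 and 409 in siSOX2b and 375, 411 and 390 in siGRHL2a. The log2FC was 1.24 ± 0.05 for KRT18 and 0.99 ± 0.05 for KRT8, and no siTP63b library overlapped the others for either gene. The ends of the annotated spans of KRT8 and KRT18 overlap on chromosome 12, so a part of the reads may count for both. KRT81 and KRT86, near-identical hair keratins of which the first lies within the span of the second, were higher as well, KRT86 at 6.48 to 7.17 CPM in siTP63b and 2.42 to 3.87 in the other libraries. The other members did not share a direction. KRT13, a keratin of mucosal squamous epithelium, was at 1297, 1099 and 1264 CPM in siTP63b, 1642, 1410 and 1666 in siSOX2b and 1790, 1886 and 1859 in siGRHL2a, lower in all siTP63b libraries by a log2FC of -0.48 ± 0.05 that was under the threshold (adjusted p 1.65e-08 by edgeR). A gene that overlaps KRT13 had 17.9% as many counts. KRT4, its partner, had a log2FC of -0.23 ± 0.10 (adjusted p 0.0805 by edgeR) and KRT19 one of -0.07 ± 0.05 (adjusted p 0.379), while KRT80, at 0.37 ± 0.05, was higher under the threshold.

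Of 44 tested genes known from epidermis as targets of p63, 36 had a log2FC below 0, 8 were lower than in each group (18.2%, against 1.62% of all genes) and 1 was higher, DLX5 (2.27%, against 1.4%). At an adjusted p below 0.05 without the fold threshold 29 were lower and 4 higher, where the same rule called 13.1% of all genes lower and 14% higher. The median log2FC of the list was -0.28.

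The 8 genes were KRT14, COL7A1, HAS3, ITGA6, SFN, LAMB3, PTHLH and FGFR2. ITGA6, the alpha 6 integrin that holds basal cells to laminin, was at 503, 467 and 545 CPM in siTP63b against 1028, 972 and 940 in siSOX2b and 1047, 1021 and 1092 in siGRHL2a. The siTP63b libraries were separate from the others, and the log2FC was -1.01 ± 0.05 (adjusted p 4.78e-16 by edgeR). HAS3, a hyaluronan synthase, was at 26.6, 26.2 and 32.5 CPM in siTP63b, 81.2, 78.9 and 84.4 in siSOX2b and 45.7, 40.7 and 43.0 in siGRHL2a, so its difference was larger from siSOX2b (-1.52) than from siGRHL2a (-0.60). CHTF8, which overlaps HAS3, had 75.2% as many counts and a log2FC of 0.06. FGFR2, the receptor for keratinocyte growth factor, lay just past the threshold at -0.76 ± 0.05, with a log2FC of -0.72 without siTP63b replicate 2 and -0.74 without siSOX2b replicate 1. DLX5, a homeobox factor, was at 3.34, 3.61 and 2.88 CPM in siTP63b and at 0.795 to 1.75 CPM in the other libraries. Other genes of the list, PERP (log2FC -0.22) and TRIM29 (-0.46), were not called.

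Of 28 tested genes of the basement membrane and the hemidesmosome, ITGA6, COL7A1 and LAMB3 were lower than in each group (10.7%, against 1.62% of all genes). COL7A1, the collagen of anchoring fibrils, was at 69.2, 60.7 and 88.9 CPM in siTP63b, 144, 131 and 158 in siSOX2b and 159, 196 and 198 in siGRHL2a (log2FC -1.16 ± 0.08). LAMB3, a chain of laminin 332, was at 81.5, 68.6 and 89.4 CPM against 120 to 136 in siSOX2b and 156 to 163 in siGRHL2a (-0.85 ± 0.06). Both were lowest in siTP63b replicate 2. LAMA3, another chain of laminin 332 (-0.24), and the hemidesmosome genes ITGB4 (-0.52) and COL17A1 (-0.48) were lower at an adjusted p below 0.05 by edgeR but under the fold threshold, and DST, at -0.08, had an adjusted p of 0.159. The median of the list was -0.20.

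In the desmosome list 1 of 13 genes was lower than in each group (7.69%, against 1.62% of all genes), the cadherin DSC3, at 150, 146 and 151 CPM in siTP63b against 220 to 243 in siSOX2b and 299 to 313 in siGRHL2a (log2FC -0.84 ± 0.05). DSP, the plaque protein desmoplakin, was at -0.52, while DSG3 (-0.30) and PKP1 (-0.31) had adjusted p of 0.37 and 0.16 against siSOX2b by edgeR. Among 32 genes of the cornified envelope and of terminal differentiation, 1 was lower (CALML3, a calmodulin-like protein, -1.28 ± 0.08) and 1 higher (PRDM1, 0.76 ± 0.15, under the threshold at 0.60 without siTP63b replicate 2). Each was 3.12% of this list, beside 1.62% lower and 1.4% higher of all genes. CALML3-AS1, which overlaps CALML3, had 123% as many counts and a log2FC of -0.98, and ATG5, which overlaps PRDM1, 981% as many. IVL, the gene of involucrin, was at most at 1.05 CPM in any library and had an adjusted p of 0.928 by edgeR, and TGM1, a transglutaminase, had one of 0.246.

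Of 34 tested genes of other epithelial junctions, 4 were higher than in each group (11.8%, against 1.4% of all genes), 6 had a log2FC below 0, and the median was 0.22. CGN, the tight junction protein cingulin, was at 8.33, 9.50 and 10.4 CPM in siTP63b against 4.22 to 4.76 in siSOX2b and 2.0 to 2.66 in siGRHL2a (1.55 ± 0.13). The siTP63b libraries were above all others. CLDN4, a claudin, was called at 0.79 ± 0.08 and fell below the threshold, at 0.74, without siGRHL2a replicate 2. TJP3 was at 1.37 to 1.45 CPM in siTP63b and at 0.123 to 0.734 CPM in the others, and APBA3, which overlaps it, had 854% as many counts. CDH1, the epithelial cadherin, had a log2FC of 0.00 ± 0.05. In this list DESeq2 also called 4 genes higher and 0 lower, and at an unadjusted p below 0.05 edgeR gave 5 lower and 20 higher, where all genes gave 18.2% and 18.9%.

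By size of change, among protein-coding genes averaging 100 counts or more, the lowest in siTP63b was CXCL14, a chemokine of epithelia. It was at 8.46, 4.82 and 9.55 CPM in siTP63b, 33.5, 27.4 and 32.4 in siSOX2b and 40.6, 40.7 and 48.3 in siGRHL2a (log2FC -2.27 ± 0.13, adjusted p 8.45e-15 by edgeR). It lies within the span of a longer gene counted with 108% as many reads. TNC, the matrix glycoprotein tenascin C, was at 86.0, 71.5 and 107 CPM in siTP63b, 309, 278 and 300 in siSOX2b and 250, 257 and 260 in siGRHL2a (-1.64 ± 0.08), and DELEC1, which contains it, carried 102% as many reads. ADAMTS15, a metalloprotease of the matrix, was at 5.09 to 6.85 CPM in siTP63b and 18.1 to 22.9 in the others (-1.83 ± 0.11).

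APLN, EDN2 and IGFL1, also among the lowest, encode secreted peptides. APLN, the vascular peptide apelin, was at 0.727, 1.45 and 1.73 CPM in siTP63b and 4.23 to 5.97 in the others (-1.95 ± 0.20). EDN2, an endothelin, was at 0.413 to 2.16 CPM against 3.32 to 5.82 (-1.73 ± 0.25). IGFL1, a member of an insulin growth factor-like family, was at 11, 10.8 and 13.8 CPM against 31.3 to 35.2 (-1.49 ± 0.08). For all 3 the siTP63b libraries lay below the other 6.

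TP53AIP1, an apoptosis gene known as a p53 target, was at 6.12, 6.02 and 7.39 CPM in siTP63b and 16.8 to 22.6 in the others (-1.61 ± 0.10). CRYAB, a small heat shock protein, differed more from siGRHL2a (-2.10) than from siSOX2b (-1.07), and HSPB2-C11orf52, which overlaps it, had 20.3% as many counts. PLB1, a phospholipase, had a log2FC of -1.56 ± 0.11. CFAP57, a cilia gene, had the same log2FC, but lies inside EBNA1BP2, which had 444% as many counts and a log2FC of -0.53. KRT78, at -2.22 ± 0.40, was the least even of these genes, with siTP63b replicate 2 at 2.86 CPM beside 0.165 and 0.469, above the 2.02 CPM of siSOX2b replicate 3.

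The largest increase was that of BIRC3, an inhibitor of apoptosis and a known NF-kB target. It was at 56.1, 60.8 and 53.5 CPM in siTP63b, 12.8, 13.6 and 10.1 in siSOX2b and 12, 8.93 and 10.3 in siGRHL2a (log2FC 2.33 ± 0.08, adjusted p 2.57e-19 by edgeR). An unnamed gene that overlaps it had 68.5% as many counts and a log2FC of 2.32. TLE4, a transcriptional corepressor of the Groucho family, was at 81.4, 79.9 and 75.1 CPM in siTP63b, 19.2, 19.2 and 18.1 in siSOX2b and 27.8, 22.7 and 22.6 in siGRHL2a (1.88 ± 0.06). For both genes the lowest siTP63b library was well above the highest of the others.

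ALPP, a placental alkaline phosphatase with the near-identical copy ALPG, was at 13.3 to 17.6 CPM in siTP63b and 3.02 to 5.05 in the others (1.88 ± 0.12). ARHGDIB, an inhibitor of small GTPases, was at 31.1, 36.8 and 28.3 CPM against 10.7 to 15.1 in siSOX2b and 7.50 to 9.64 in siGRHL2a (1.59 ± 0.10). GDA, guanine deaminase, was at 9.43 to 12.1 CPM against 2.48 to 4.76 (1.68 ± 0.14). No library of siTP63b overlapped the others for these 3 genes.

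PRR15 (1.86), CCBE1 (1.59), SERTAD4 (1.57) and PTPRB (1.56) were higher with separate libraries as well. CPEB1, a regulator of poly(A) tails, was called at 2.11 ± 0.41, but it was at 43.4 CPM in siTP63b replicate 2 and at 3.34 and 3.46 in replicates 1 and 3, within the 2.45 to 4.92 CPM of the other groups. Without siTP63b replicate 2 its log2FC was -0.19 (adjusted p 0.516 by edgeR), and a gene that overlaps it had 9180% as many counts.

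**Figure D2:**
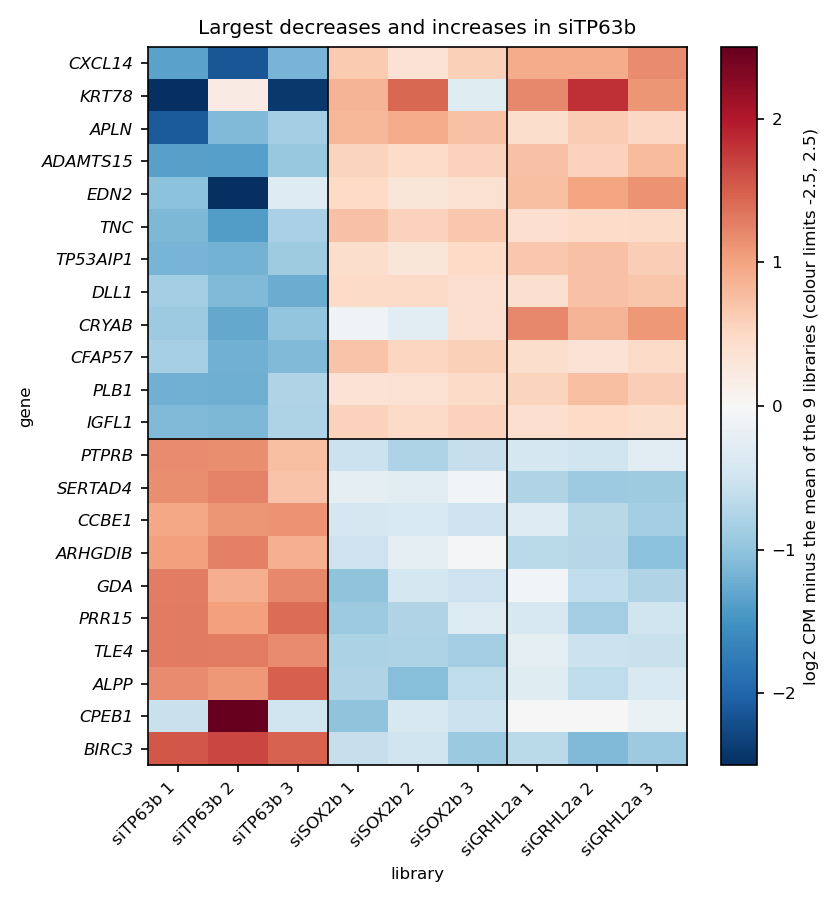
Log2 CPM of each library minus the mean of the 9 libraries, for the 12 protein-coding genes with the largest decrease (above the line) and the 10 with the largest increase (below it) in siTP63b. The 3 columns of siTP63b stand apart from the other 6 in most lines, except KRT78, where replicate 2 is near the others, and CPEB1, where replicate 2 alone is high.

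Cytokine genes moved in both directions. Of 28 tested members of a list of cytokines and NF-kB response genes, 3 were lower than in each group (10.7%) and 4 higher (14.3%). Over all genes these shares were 1.62% and 1.4%. The 3 lower genes belong to the interleukin 1 family. IL1A was at 22.1, 25.1 and 20.1 CPM in siTP63b, 68.9, 66.8 and 68.0 in siSOX2b and 56.7, 53.1 and 48.9 in siGRHL2a (log2FC -1.42 ± 0.07). IL1B was at 4.58 to 6.02 CPM against 10.5 to 12.9 (-1.10 ± 0.12), and IL36G at 0.860 to 0.895 CPM against 2.29 to 6.21 (-2.0 ± 0.23). No siTP63b library overlapped the others for these genes.

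The 4 higher genes were BIRC3, the chemokine CXCL1 (1.37 ± 0.17), the iron-binding protein LCN2 (0.79 ± 0.14) and IL6, the last at no more than 1.03 CPM in any library and overlapped by STEAP1B, with 3387% as many counts. CXCL1 was at 4.61 to 5.92 CPM in siTP63b and at 1.49 to 2.53 in the others. Of 36 interferon-stimulated genes 1 was higher than in each group (2.78%, against 1.4% of all genes), DDX58, an RNA sensor, and a gene that overlaps it had 632% as many counts. Its log2FC of 0.81 was under the threshold without siTP63b replicate 3 (0.73) or siSOX2b replicate 2 (0.73). In the interferon list 1 gene was lower and 14 were higher at an unadjusted p below 0.05 by edgeR, where all genes gave 18.2% and 18.9%. The median log2FC of that list was 0.16.

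In the Notch pathway, through which neighbouring cells signal by membrane ligands, 3 of 23 genes were lower than in each group (13%, against 1.62% of all genes). DLL1, a Notch ligand, was at 9.32, 7.85 and 7.14 CPM in siTP63b, 23.4, 23.6 and 22.7 in siSOX2b and 22.3, 28.2 and 27.1 in siGRHL2a (-1.59 ± 0.10), and FAM120B, which overlaps it, had 252% as many counts and a log2FC of -0.36. HES2, a transcription factor of the hairy family, was at -0.85 ± 0.11. MFNG, which glycosylates Notch, was at -0.88 ± 0.19 and under the threshold, at -0.70, without siTP63b replicate 2. The ligands JAG1 (-0.45) and JAG2 (-0.38) were lower under the fold threshold, and the receptor NOTCH1, at 0.42, had an adjusted p of 0.18 against siGRHL2a by edgeR.

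Growth factor genes were lower and higher in equal number, 3 of 29 each (10.3%, against 1.62% lower and 1.4% higher of all genes). FGFBP1, which carries FGFs through the matrix, was at 344, 324 and 348 CPM in siTP63b, 817, 670 and 761 in siSOX2b and 639, 575 and 605 in siGRHL2a (-0.99 ± 0.05). DUSP6, a phosphatase induced by ERK signalling, was at 26.4 to 29.8 CPM against 41.5 to 66.6 (-0.94 ± 0.07). FGFR2 was the third. ERBB4, a receptor of the EGF family (0.90 ± 0.13), EGF (1.02 ± 0.22) and the signalling antagonist SPRY1 (0.94 ± 0.17) were higher. EGFR was at 1044 to 1113 CPM in siTP63b, within the 973 to 1100 of siSOX2b or just above, and below the 1593 to 1672 of siGRHL2a.

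Of 32 tested p53 target genes, 4 were lower than in each group (12.5%, against 1.62% of all genes). RRM2B, a subunit of ribonucleotide reductase, was at 26.4, 27.9 and 26.8 CPM in siTP63b, 54.9, 54.6 and 55.4 in siSOX2b and 56.5, 53.1 and 53.3 in siGRHL2a (-1.01 ± 0.06). SFN, the 14-3-3 protein sigma (-0.91 ± 0.08), and BTG2, an antiproliferative gene (-0.87 ± 0.09), were lower too. CDKN1A, the cell cycle inhibitor p21, was at 16.5 to 18.3 CPM in siTP63b, 13.3 to 14.4 in siSOX2b and 11.6 to 12.8 in siGRHL2a, higher by 0.44 ± 0.08 and under the threshold. MDM2, at 0.23, had an adjusted p of 0.76 against siSOX2b by edgeR. No member was higher than in each group by edgeR or DESeq2 (0 of 32), and at an unadjusted p below 0.05 13 were lower and 10 higher, where all genes gave 18.2% and 18.9%.

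Of 56 tested genes of the cell cycle and DNA replication, 0 were called by edgeR in either direction at the fold threshold, and DESeq2 called 1 higher. At an unadjusted p below 0.05, a rule that 18.2% of all genes passed as lower and 18.9% as higher, 4 were lower and 26 higher, and the median log2FC was 0.10. MKI67, the proliferation marker, had a log2FC of -0.09 ± 0.05 (adjusted p 0.142 by edgeR). For 33 genes of cholesterol and fatty acid synthesis both tools called 0, with 5 lower and 15 higher at an unadjusted p below 0.05 (18.2% and 18.9% of all genes). Of 33 genes of the NRF2 antioxidant program 1 was higher than in each group (3.03%, against 1.4% of all genes), the aldo-keto reductase AKR1B10, at 647, 615 and 592 CPM in siTP63b, 192, 188 and 192 in siSOX2b and 334, 322 and 308 in siGRHL2a (1.32 ± 0.04). In this list 2 genes were lower and 24 higher at an unadjusted p below 0.05 by edgeR (18.2% and 18.9% of all genes). The median log2FC of the list was 0.18.

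Of 35 proteases and inhibitors 6 were lower than in each group (17.1%, against 1.62% of all genes) and 2 higher (5.71%, against 1.4%). MMP13, a collagenase, was at 4.96, 4.75 and 6.92 CPM in siTP63b and at 11.6 to 16.8 in the others (-1.46 ± 0.12). ADAMTS1, a matrix metalloprotease, was at 3.60 to 4.50 CPM against 6.07 to 12.9 (-1.19 ± 0.14). TIMP3, an inhibitor of metalloproteases, was at 45.2 to 47.7 CPM against 74.3 to 88.5 (-0.82 ± 0.05), and SYN3, which contains it, had 101% as many counts. MMP10 and KLK8 were lower as well, and the protease inhibitor SLPI and the protease TMPRSS11E the higher ones. Of 30 mesenchymal and matrix genes TNC was the 1 lower and AXL, a receptor tyrosine kinase, the 1 higher, at 91.4, 87.4 and 109 CPM against 43.7 to 50.2 (1.04 ± 0.06). Each was 3.33% of that list, beside 1.62% lower and 1.4% higher of all genes.

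In the Wnt pathway 3 of 39 genes were lower than in each group (7.69%, against 1.62% of all genes), the secreted antagonist DKK3, the ligand WNT6 and the receptor LGR5. LGR5 was at 2.58, 2.48 and 2.23 CPM in siTP63b, 5.27, 3.60 and 5.03 in siSOX2b and 10.5, 10.3 and 8.61 in siGRHL2a (-1.47 ± 0.15). WNT6 was at 4.69 to 5.32 CPM in siTP63b and 7.35 to 9.76 in the others (-0.79 ± 0.12), and just under the threshold, at -0.75, without siSOX2b replicate 2 or siTP63b replicate 3. DKK3 differed more from siGRHL2a (-1.35) than from siSOX2b (-0.42), and USP47, which overlaps it, had 71.5% as many counts. The TGF-beta and BMP list had 2 of 38 genes lower, BMP2 (-0.96) and FSTL3 (-0.89), and 2 higher, BMP4 (0.88) and ID4 (1.37). Each direction made up 5.26% of that list, beside 1.62% lower and 1.4% higher of all genes. BMP4 was at 19.3 to 22.8 CPM in siTP63b and 10.9 to 12.4 in the others. The list of YAP and TEAD targets had 2 of 31 genes higher (6.45%, against 1.4% of all genes), AXL and the TEAD cofactor VGLL1 (1.32 ± 0.17). That of glycolysis and hypoxia had 2 of 31 lower (6.45%, against 1.62%), the carbonic anhydrase CA12 (-1.03) and the peptide hormone ADM (-0.90), and 1 higher (3.23%, against 1.4%), the glucose transporter SLC2A3 (0.89).

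Of 39 genes of the nervous system and of axon guidance, 4 were lower than in each group (10.3%, against 1.62% of all genes) and 1 was higher (2.56%, against 1.4%). NGFR, a neurotrophin receptor also found on basal epithelial cells, was at 25.6, 27.6 and 29.3 CPM in siTP63b, 89.2, 96.1 and 89.9 in siSOX2b and 53.6, 58.3 and 59.9 in siGRHL2a (-1.40 ± 0.06). NGFR-AS1 overlaps it with 97.1% as many counts and a log2FC of -1.41, and the reads of the pair cannot be told apart. EFNB1, an ephrin ligand (-1.13 ± 0.08), the guidance cue SLIT3 (-1.06 ± 0.08) and SEMA5A (-0.77 ± 0.10) were lower, and SEMA3A, another guidance cue, was higher at 22.2 to 28.2 CPM against 10.3 to 13.7 (1.06 ± 0.10). Of 33 epithelial and squamous transcription factors 1 was lower (3.03%, against 1.62% of all genes), BCL11B, at 9.64 to 10.4 CPM against 12.4 to 26.3 (-0.87 ± 0.09), and 2 were higher (6.06%, against 1.4%), SOX2 and DLX5. SOX2 is the target of siSOX2b, 1 of the comparators, so its call is in part set by the design.

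The summed level of 15 squamous markers was 7552 to 8746 CPM in siTP63b, 10745 to 11711 in siSOX2b and 13397 to 13865 in siGRHL2a. Most of the sum is KRT5, and TP63 is itself a member. TP63, KRT14, KRT17, DSC3 and CALML3 were lower than in each group, and SOX2, the target of siSOX2b, was higher. S100A2, at 23.1 to 26.4 CPM in siTP63b, 29.3 to 35.9 in siSOX2b and 26.2 to 31.9 in siGRHL2a, did not follow the order of the sums. The 12 markers of adenocarcinoma and alveolar cells summed to 14.6 to 16.1 CPM in siTP63b and 18.0 to 23.0 in the others, and 4 of the 5 tested had a log2FC below 0. SFTPC and SFTPA1, surfactant protein genes, had 0 counts in all 9 libraries, while NKX2-1 had 148 to 352 and AGER 135 to 265. The 9 fibroblast markers summed to 48.4 to 59.9 CPM in siTP63b and 57.7 to 72.5 in the others. Most of that sum is THY1, at 1284 to 1992 counts per library. COL1A1 had 116 to 178 counts, while DCN was at 0 and COL1A2 at no more than 6. What these markers contribute to the other differences was not tested.

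FOXA1, a pioneer factor of glandular epithelia, and EMP1, an epithelial membrane protein, were chosen after their values were seen. FOXA1 was at 27.1, 26.9 and 29.6 CPM in siTP63b, 7.57, 8.28 and 8.99 in siSOX2b and 12, 10.5 and 10.5 in siGRHL2a (log2FC 1.55 ± 0.08). EMP1 was at 502, 522 and 504 CPM in siTP63b and at 211 to 221 in the other 6 libraries (1.25 ± 0.04). The siTP63b libraries lay above all others for both genes.

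Several genes named above share reads with an overlapping gene, whose counts are given as a percent of theirs. The partner was SOX2-OT for SOX2 (129%), KRT8 for KRT18 (204%), KRT18 for KRT8 (49.1%), KRT7 for KRT86 (64.1%), KRT86 for KRT81 (783%), SERTAD4-AS1 for SERTAD4 (10.9%), WTAPP1 for MMP10 (282%), LNC-LBCS for ID4 (135%), TTC6 for FOXA1 (15.9%) and LINC00592 for KRT80 (101%). Genes without a symbol overlapped ITGA6 (67.3%), PTHLH (90.3%), KLK8 (184%), SEMA5A (54.5%), KRT75 (29.7%), ALPP (27.6%), PTPRB (25.1%), IGFL1 (24.2%), DUSP6 (23.5%), SLIT3 (13.4%), KRT17 (11%) and GRHL2 (11%). For these pairs the counts do not show which of the 2 genes a read came from.

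The levels in siNC1, scaled over all 15 libraries, place several of these genes differently, with the limit of the library set stated above. TP63 was at 682 ± 17.5 CPM (SD, n = 3) in siNC1, close to the 690 ± 38.2 of siSOX2b, and at 363 ± 22.3 in siTP63b. ITGA6 had the same order, with 951 ± 12.6 CPM in siNC1 and 499 ± 38.7 in siTP63b. KRT14, however, was at 55.1 ± 4.41 CPM in siNC1, 64.2 ± 9.43 in siTP63b, 144 ± 22.5 in siSOX2b and 185 ± 12.5 in siGRHL2a. Its siNC1 level was thus near that of siTP63b, and the other 2 knockdowns were above both.

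CXCL14 and TNC were likewise nearer to siTP63b in siNC1, at 11.7 ± 0.699 and 127 ± 7.34 CPM, than to the other 2 knockdowns. IGFL1 was at 1.11 ± 0.0585 CPM in siNC1, under the 11.7 ± 1.68 of siTP63b. KRT18 was at 290 ± 4.15 CPM in siNC1, between the 408 ± 24.6 of siTP63b and the 157 ± 9.85 of siGRHL2a. Some other genes called higher were in siNC1 nearer to siTP63b than to the other 2 knockdowns. GDA had a mean of 11.47 CPM in siNC1 and 10.86 in siTP63b, and AKR1B10 had 535.55 and 610.29. SLC2A3 had 113.71 CPM in siNC1 and 123.29 in siTP63b, and KRT8 had 631.82 and 761.48. ERBB4 had the same order as KRT8. Not all higher genes were placed so. BIRC3 (13.1 ± 0.611), TLE4 (10.1 ± 0.422) and EMP1 (148 ± 1.93) were in siNC1 far below siTP63b, which had 56.1 ± 3.66, 77.8 ± 3.23 and 503 ± 11 CPM.

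**Figure D3:**
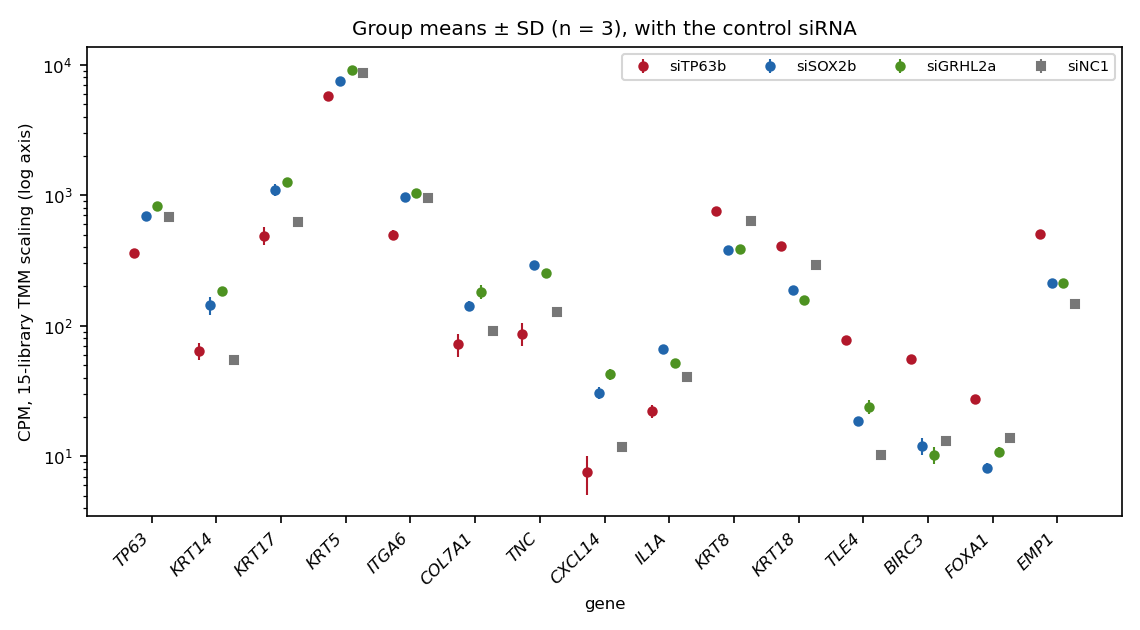
Group means with SD (n = 3) on a log axis of CPM scaled over 15 libraries, for 15 genes in siTP63b, siSOX2b, siGRHL2a and the control siNC1, whose libraries belong to the other set. For TP63 and ITGA6 the control lies with siSOX2b, for KRT14 it lies near siTP63b, and for BIRC3, TLE4 and EMP1 siTP63b stands above all the others.

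Promoters were read for a motif of AP-1, the factor family of JUN and FOS, and for a pair of CATG cores of p53 family half-sites. The bases around the cores were not matched, so such a pair need not be a p53 family site. The sequences, from RefSeq on GRCh38.p14, are the 250 bases before a transcript start, and a match on either strand was counted. The AP-1 letters TGACTCA or their reverse complement TGAGTCA stood in 4.2% of all 35116 promoters and the pair of cores CATGNNNNNNCATG in 0.296%. Only 161 of the 244 protein-coding genes lower than in each group and 167 of the 245 higher had a promoter in the table, under 80%, so a comparison of shares over the calls is void and none is made. Only a part of the genes named here was scanned, all of them lower or higher than in each group. Genes such as KRT5, JUN, MUC4 and RRM2B were not scanned, and the scanned genes with a promoter sequence were not counted. Of those scanned, 9 held the AP-1 letters, CXCL14, PLB1, LAMB3 and IL1A among those lower and CPEB1, ARHGDIB, PRDM1, CLDN4 and EMP1 among those higher. The pair of CATG cores stood before TENM2, which was lower (log2FC -1.26 ± 0.05) and was chosen after its values were seen. Promoters of 2 lower and 2 higher genes with the AP-1 letters, and that of TENM2, are shown as examples with the matched letters in capitals, the N positions of the pair excepted. They lie at chr5:135578992-135579241, minus strand (CXCL14), chr2:112784494-112784743, minus strand (IL1A), chr7:73830746-73830995, plus strand (CLDN4), chr12:13196476-13196725, plus strand (EMP1) and chr5:167754679-167754928, plus strand (TENM2).
CXCL14: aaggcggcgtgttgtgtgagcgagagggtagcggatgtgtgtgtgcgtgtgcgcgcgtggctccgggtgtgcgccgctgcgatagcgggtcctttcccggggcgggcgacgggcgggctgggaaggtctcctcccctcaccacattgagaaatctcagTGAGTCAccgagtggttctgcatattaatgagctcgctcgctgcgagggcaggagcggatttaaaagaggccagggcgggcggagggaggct
IL1A: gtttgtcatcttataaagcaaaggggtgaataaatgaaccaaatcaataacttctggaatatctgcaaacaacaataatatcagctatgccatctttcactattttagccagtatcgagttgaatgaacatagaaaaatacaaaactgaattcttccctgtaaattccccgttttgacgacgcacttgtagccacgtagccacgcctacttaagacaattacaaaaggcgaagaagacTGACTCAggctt
CLDN4: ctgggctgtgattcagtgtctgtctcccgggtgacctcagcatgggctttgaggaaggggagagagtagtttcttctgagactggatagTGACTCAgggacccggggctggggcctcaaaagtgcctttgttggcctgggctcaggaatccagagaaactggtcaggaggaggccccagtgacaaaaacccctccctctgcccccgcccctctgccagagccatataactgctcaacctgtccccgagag
EMP1: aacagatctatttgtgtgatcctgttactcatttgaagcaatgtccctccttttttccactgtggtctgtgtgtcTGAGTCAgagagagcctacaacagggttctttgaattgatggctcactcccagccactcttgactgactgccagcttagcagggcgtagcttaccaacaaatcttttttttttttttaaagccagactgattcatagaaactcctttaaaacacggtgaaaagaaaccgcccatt
TENM2: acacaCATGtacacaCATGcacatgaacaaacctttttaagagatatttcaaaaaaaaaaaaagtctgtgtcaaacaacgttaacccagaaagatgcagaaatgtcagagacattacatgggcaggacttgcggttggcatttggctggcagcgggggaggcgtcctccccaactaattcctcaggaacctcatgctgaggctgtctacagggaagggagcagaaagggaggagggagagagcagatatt
The letters begin 92 bases before the start in CXCL14, 12 in IL1A, 161 in CLDN4, 175 in EMP1 and 245 in TENM2. The AP-1 letters occur before genes of both directions, and whether any factor binds them was not measured.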

How the data were processed

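RNA-seq counts of HCC95 cells were analysed for siTP63b, siSOX2b and siGRHL2a, 3 libraries each. The authors captured poly(A) RNA, sequenced paired ends, aligned them to hg38 with HISAT2 2.2.1 and counted uniquely aligned reads with featureCounts 2.0.1 on Gencode release 40, and the deposited counts are raw counts per gene. Whether reads or fragments were counted is not given in the sources used here. The counted length equalled the whole span for all 61544 genes, so intronic reads were counted too. Of genes nested in another gene with at least 100 counts, the containing gene had at least as many counts in every library for 100% of 1284 opposite-strand and 788 same-strand pairs, so reads of overlapping genes, 77.1% of those tested, count for both and strand was not used. All 15 count columns were matched by name.

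Counts were fitted in R 4.3.3 with edgeR 4.0.16 (TMM, filterByExpr by group, quasi-likelihood test) over the 9 libraries, with Benjamini-Hochberg adjustment over 24671 genes, with calls at adjusted p under 0.05 and log2FC past 0.75 either way. Depth was 22255856 to 34229063 counts per library. CPM are counts per library size after TMM scaling, and levels beside siNC1 are scaled over 15 libraries. Gene types came from Gencode release 44. The steps were tested on simulated counts. The members and the 23 gene lists were chosen with earlier results of these data known. Genes named were TP63, TP73, the other targeted genes, PTPRZ1, MDK, KRT5 and KRT14, then the 12 lowest and 10 highest protein-coding genes averaging 100 counts or more, and up to 4 called members per list by adjusted p. A gene overlapping another with at least 10% as many counts is given with that share. Other genes were named after their values were seen. A few items that meet the rule are not reported here.

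Replicates differed by more than the noise of independent counts, with a chi-square per gene of 4.79 to 7.79. These libraries had an excess of even counts, so their counts may not be independent. How much of the difference exceeds counting noise was not measured. DESeq2 1.42.0 and the other alternatives are in the closing section.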

Additional observations from a re-analysis of the deposited data

How the results depend on the processing

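TP63 stayed lower in siTP63b in every alternative run, with a log2FC from -1.11 to -1.04 when 1 library was left out. Leaving out each library in turn gave 534 to 672 genes lower and 486 to 582 higher against the mean, and 346 to 456 lower and 297 to 339 higher than in each group. Without a threshold on log2FC these 4 counts were 3240, 3446, 1602 and 1558. With an absolute log2FC above 1 they were 352, 315, 225 and 194, and with glmTreat against 0.75 they were 92, 110, 92 and 106. With protein-coding genes alone, fewer genes were tested and the counts were 348, 349, 252 and 253. RLE size factors, both low-count filters, DESeq2 (511, 473, 342 and 314), all 15 libraries in the fit, halved counts and thinned libraries kept the 4 counts within 1.5 times. The replicate number as a block gave 577, 535, 398 and 337 genes. The correlations of same-numbered libraries were from -0.01 to 0.04, so the numbers were not taken as pairs. Yet 6 of 9 libraries correlated best with a library of their own number. A pairing is therefore not excluded, and the block fit gives the counts for that case.

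Of 84 named genes, each followed through 18 alternatives, 77 kept their direction and their side of the thresholds against the mean in every alternative that gave a value. Their differences from each group alone were not followed gene by gene. The exceptions were CPEB1, reversed to -0.19 without siTP63b replicate 2 (up to 2.60 without another library), and FGFR2, PRDM1, MFNG, CLDN4, DDX58 and WNT6, which kept their direction but lost the fold threshold in 14 of 1507 values. In the calls against each group, DESeq2 gave 3 higher simple and mucosal keratins, 3 cytokine genes and 1 protease or inhibitor. By edgeR these were 4, 4 and 2. The cornified envelope list had 0 higher by DESeq2 and 1 by edgeR. The TGF-beta and BMP list had 1 lower by DESeq2 and 2 by edgeR. Counts do not limit most named genes, but KRT75, KRT81, TJP3, IL6 and IVL were at about 1 CPM or below in some groups. For overlapping genes, near-identical keratins and genes within antisense pairs the source of the reads cannot be told apart.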

Other observations

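The following genes, picked singly after their values were seen and standing for no group, were higher in siTP63b than in each group. MUC4, a membrane mucin, was at 7.87, 9.16 and 10.2 CPM in siTP63b, 3.66, 3.88 and 3.19 in siSOX2b and 4.2, 4.55 and 6.2 in siGRHL2a (log2FC 1.10 ± 0.13). AGR2, a protein disulfide isomerase needed for mucin secretion, was at 1.73 to 2.65 CPM in siTP63b and 0.683 to 1.55 in the others (1.06 ± 0.25). CEBPA, a transcription factor of airway epithelium, was at 2.41 to 2.96 CPM against 0.869 to 1.88 (1.06 ± 0.21), and a gene that overlaps it had 68.2% as many counts. SCNN1A, a subunit of the epithelial sodium channel, was at 142, 147 and 159 CPM against 83.5 to 92.4 (0.79 ± 0.05), and LTBR, which overlaps it, had 84.7% as many counts. For these 4 genes every siTP63b library was above the other 6.

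Abundant genes lower than in each group, also chosen after their values were seen, included TENM2, an adhesion receptor of neurons, at 488, 467 and 532 CPM in siTP63b, 1168, 1040 and 1133 in siSOX2b and 1295, 1244 and 1236 in siGRHL2a (-1.26 ± 0.05), and CTB-178M22.2, which overlaps it, had 38.1% as many counts. ACKR3, a scavenging chemokine receptor, was at 66.9 to 76.9 CPM against 127 to 177 (-1.10 ± 0.06). JUN, a subunit of AP-1, was at 24.1 to 25.4 CPM against 44.4 to 55.1 (-1.0 ± 0.06). GJB2 and GJB6, connexins of squamous epithelia, had log2FC of -1.04 ± 0.06 and -1.12 ± 0.12, and VDR, the vitamin D receptor, -0.91 ± 0.09. Again the siTP63b libraries did not overlap the others. Whether these differences follow from the loss of TP63 or from the siRNA cannot be told apart.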
